A study of Mus musculus with 4 samples.

Results

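The Notch pathway was read in RNA of sorted mouse mammary tumor cells through 10 genes of the deposited table, which holds 24043 rows. They are the 4 receptor genes Notch1, Notch2, Notch3 and Notch4, the ligand genes Jag1, Jag2 and Dll1, and the target genes Hes1, Hey1 and Nrarp, picked by symbol, and all 10 had a row. The tested libraries are the 2 labelled Lsd1 knockout, from mice with conditional Lsd1 alleles (Lsd1L/L), and they are set against 2 wild-type libraries from Lsd1+/+ mice. All 4 came from MMTV-PyMT females, in which polyoma middle T drives mammary tumors, and all carried the Rosa26-Stop-YFP reporter (R26Y). All received Ad-K8-Cre, an adenovirus that expresses Cre from the Krt8 promoter, into the ducts 2 to 3 months before YFP+ cells were sorted. The ages of the mice are not given in the labels. YFP marks cells that recombined the reporter, which need not be the cells that lost Lsd1. The labels do not say whether the libraries came from separate mice, so the p-values measure the spread between these libraries, which may be technical.

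Notch signalling passes between touching cells. A ligand of the Jagged or Delta family on one cell binds a Notch receptor on its neighbour, the receptor is cut by an ADAM protease and then by gamma-secretase, and the freed intracellular domain enters the nucleus, where it joins the DNA-binding protein RBPJ and a Mastermind coactivator to switch on genes of the Hes and Hey families and Nrarp. Without the intracellular domain RBPJ sits with corepressors. In the mammary gland the pathway is known for its part in luminal cell fate. It also acts in endothelium, in pericytes and in T and B cell development. LSD1, encoded by Kdm1a, is a histone demethylase of corepressor complexes.

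The 2 labelled-knockout libraries were much alike and the 2 wild-type libraries were not. Over the 11138 genes tested, the median absolute difference between replicates was 0.13 in the labelled-knockout libraries and 0.50 in wild-type on the log2(FPKM + 1) scale. FPKM is the read or fragment number scaled by transcript length and library total. Very low values came in steps of whole reads, from which the relative depth was 0.928 for the first labelled-knockout library, 1.03 for the first wild-type and 0.850 for the second wild-type, with the second labelled-knockout library set to 1. The absolute depth is unknown, so no counting interval is given. Kdm1a was at 20.2 and 22.8 FPKM in the labelled-knockout libraries, against 52.5 and 22.9 FPKM in wild-type (limma, adjusted p = 0.34). The second wild-type library thus had nearly the Kdm1a level of the labelled-knockout libraries, and the tissue label of both labelled-knockout libraries reads Lsd1+/+. Because of both points the group is named by its label.

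The sorted cells are labelled as mammary tumor cells, and luminal epithelial markers were present in every library at unequal levels. The 10 luminal markers, among them Krt8, Krt18 and Epcam, summed to 728 and 752 FPKM in the labelled-knockout libraries, against 12229 and 2732 FPKM in wild-type, and all 10 were lower in the labelled-knockout libraries (1 passed the test). The 13 lymphocyte markers, among them Cd3g and Lck, summed to 2111 and 2015 FPKM in the labelled-knockout libraries, against 17.0 and 74.2 FPKM in wild-type, and all 13 rose. The 8 neutrophil markers summed to 1166 and 1245 FPKM, against 573 and 627 FPKM in wild-type. Of their differences 7 were positive, and 3 of the markers passed the test as higher. Ltf went the other way, at 42.3 and 37.3 FPKM in the labelled-knockout libraries, against 313 and 76.4 FPKM in wild-type. The second wild-type library stood apart: its 9 macrophage markers summed to 4547 FPKM and its 10 endothelial markers to 556 FPKM, while the first wild-type library had 168 and 45.5 FPKM for these lists. The labelled-knockout libraries had 222 and 211 FPKM for macrophage and 28.6 and 31.0 FPKM for endothelial markers. Of all markers listed, Zap70 and Mmp8 were at 0 in the first wild-type library and no other was at 0 in any library.

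**Figure D1:**
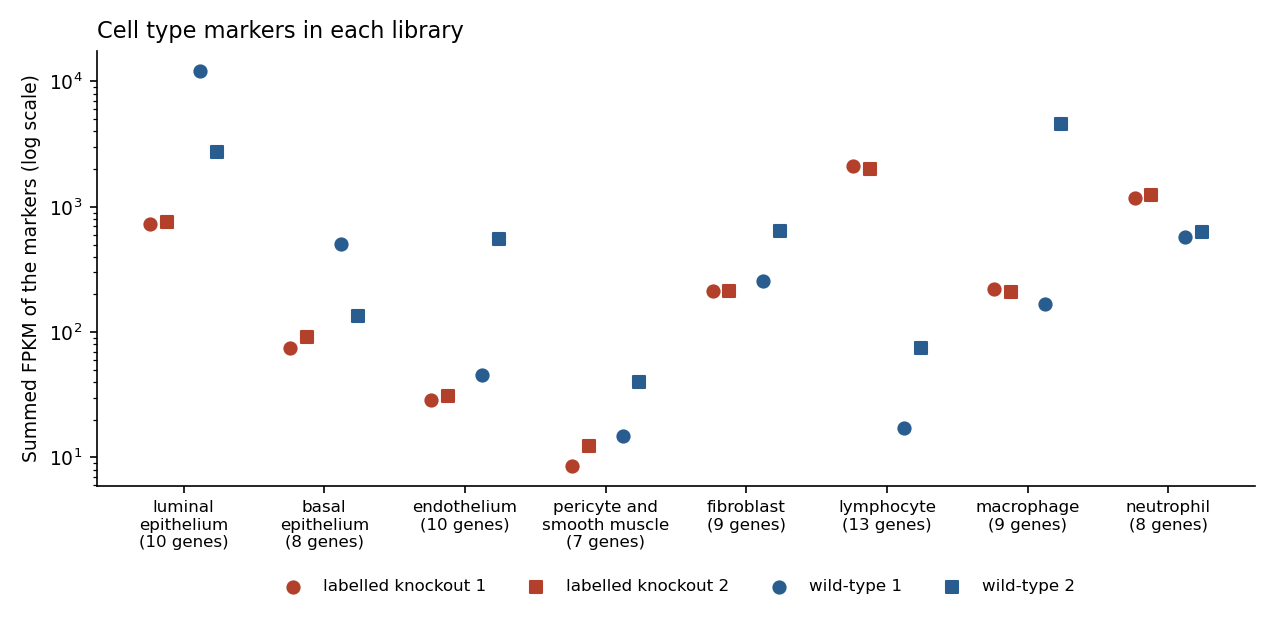
Summed FPKM of the marker genes of 8 cell types (log axis), with a point for each library; circles are replicate 1 and squares replicate 2. Lymphocyte markers were at 2111 and 2015 FPKM in the labelled-knockout libraries, against 17.0 and 74.2 FPKM in wild-type, and the second wild-type library held the highest macrophage and endothelial sums.

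Hes1 and Hey1 were the members that passed the test, and both fell in the labelled-knockout libraries. Hes1, a transcriptional repressor of the basic helix-loop-helix class and the classical Notch target, was at 10.2 and 11.1 FPKM in the labelled-knockout libraries, against 37.0 and 38.2 FPKM in wild-type. The groups did not overlap, and each pair agreed closely. Its mean was 10.7 ± 0.693 FPKM in the labelled-knockout libraries and 37.6 ± 0.839 FPKM in wild-type (SD, n = 2 each), a ratio of 0.284. On the log2(FPKM + 1) scale the difference was -1.73 (SE 0.18; limma, adjusted p = 0.025). Hey1, a related repressor of the Hairy/enhancer-of-split family with a YRPW motif, was at 1.48 and 1.30 FPKM in the labelled-knockout libraries, against 11.8 and 7.82 FPKM in wild-type. Here too the groups stood clear of each other, and both wild-type values were several times those of the other pair. The difference was -2.15 (SE 0.28; limma, adjusted p = 0.031). In these bulk libraries fewer cells of a type and less RNA per cell cannot be told apart.

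Of the 7 members tested 2 passed, both as lower, while 16.5% of all tested genes passed in either direction and 6.99% as lower. Groups that do not overlap were common, at 71.4% of tested genes, so that separation by itself says little of a member. Both calls were lost when a labelled-knockout library was left out, and also with no filter on low values (limma, adjusted p = 0.055 for Hes1 and 0.061 for Hey1). Without the first labelled-knockout library the adjusted p was 0.39 for Hes1 and for Hey1, without the second it was 0.39 and 0.40, and no gene of the table passed in either case (1385 and 1346 genes at an unadjusted p under 0.05). The differences themselves ranged from -1.79 to -1.67 for Hes1 and from -2.42 to -1.88 for Hey1 over the 4 fits that left out a library.

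The same libraries differed in luminal markers. Per unit of Krt18, a luminal keratin, Hes1 stood at 0.0400 and 0.0428 in the labelled-knockout libraries, against 0.00858 and 0.0403 in wild-type, as ratios of FPKM. For Hey1 the ratio was 0.00584 and 0.00499 in the labelled-knockout libraries, against 0.00273 and 0.00824 in wild-type. For Krt18 the groups overlapped in both ratios, and the outcome differed between markers of the luminal list. Over the 10 luminal markers in turn, the ratio of Hes1 was lower in both labelled-knockout libraries than in both wild-type libraries for 1 marker, higher for 3 and overlapping for 6. The ratio of Hey1 was lower for 2 markers, higher for 0 and overlapping for 8. The marker with lower ratios for both genes was Muc1, a luminal mucin, named here after its values were seen. Hes1 per unit of Muc1 was 2.57 and 2.59 in the labelled-knockout libraries, against 4.95 and 3.66 in wild-type, and Hey1 per unit of Muc1 was 0.375 and 0.302, against 1.57 and 0.750 in wild-type. The 3 markers with higher ratios of Hes1 were the claudin genes Cldn3, Cldn4 and Cldn7. Hes1 per unit of Cldn3 was 0.654 and 0.560 in the labelled-knockout libraries, against 0.128 and 0.332 in wild-type. Per unit of Cldn4 it was 0.477 and 0.639, against 0.0866 and 0.344 in wild-type. Per unit of Cldn7 it was 0.433 and 0.412, against 0.0706 and 0.360 in wild-type. Hes1 differed between the wild-type libraries by a factor of 1.03, and their luminal sums were 12229 and 2732 FPKM. The part of epithelial content in the differences of Hes1 and Hey1 was not tested.

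Nrarp, an ankyrin repeat protein that is a Notch target and a feedback inhibitor of the pathway, did not follow Hes1 and Hey1. It was at 4.30 and 4.42 FPKM in the labelled-knockout libraries, against 0.956 and 4.08 FPKM in wild-type. The second wild-type library lay close to the pair labelled knockout and the first lay far below. The difference was 0.77 (SE 0.54; limma, adjusted p = 0.35), with an interval from -0.74 to 2.27. Leaving out the first wild-type library gave 0.08 and leaving out the second gave 1.45, where it passed (adjusted p = 4.18e-05) with a single wild-type library assumed to vary like the pair labelled knockout. Hes1 exceeded Nrarp by a factor of 2.36 and 2.52 in the labelled-knockout libraries, against 38.7 and 9.36 in wild-type. Lymphocyte markers stood in the same order over the wild-type libraries, at 17.0 FPKM in the first and 74.2 FPKM in the second. So did the sums of macrophage, endothelial, fibroblast, pericyte and neutrophil markers, while the luminal and basal sums stood in the reverse order. In the labelled-knockout libraries the lymphocyte sums were 2111 and 2015 FPKM. Macrophage sums there were 222 and 211 FPKM, against 4547 FPKM in the second wild-type library. The part of these cell types in the Nrarp values was not tested.

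**Figure D2:**
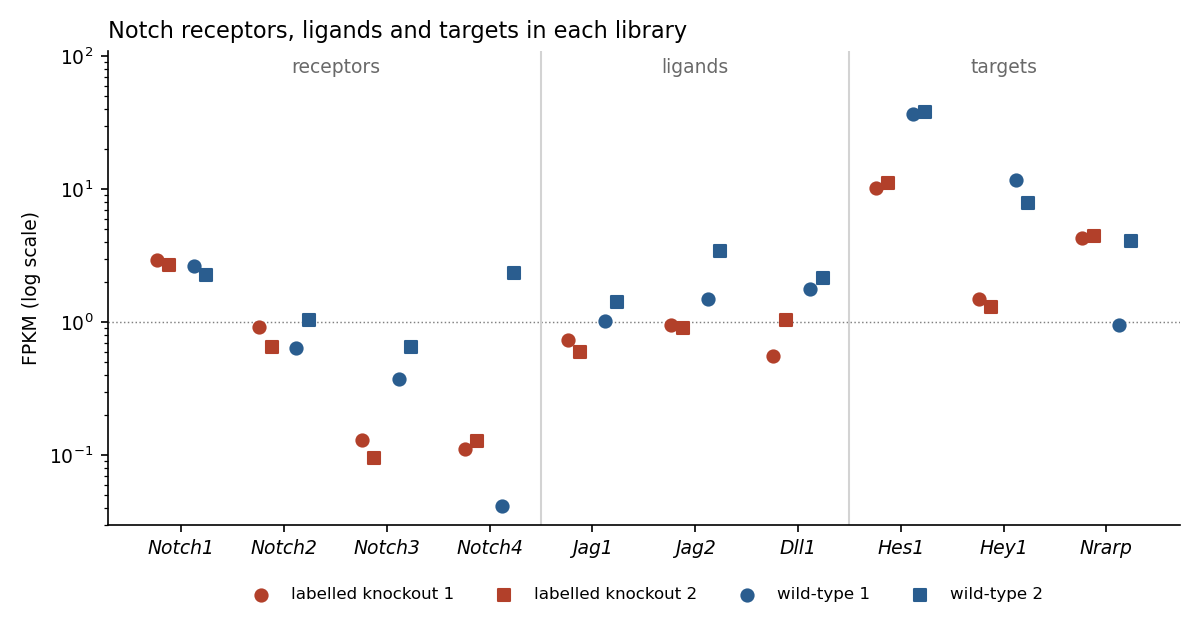
FPKM of the 10 genes in each library (log axis; circles are replicate 1, squares replicate 2, and the dotted line marks 1 FPKM). Hes1 and Hey1 lay lower in both labelled-knockout libraries, Notch1 was nearly level in all 4, and Notch4 reached 2.36 FPKM in the second wild-type library against 0.0413 FPKM in the first.

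Of the receptors, Notch1 was the main one in 3 of the libraries and it hardly moved. It was at 2.93 and 2.67 FPKM in the labelled-knockout libraries, against 2.65 and 2.25 FPKM in wild-type. The groups were separated by a gap smaller than the spread inside either pair. The difference was 0.14 (SE 0.22; limma, adjusted p = 0.66), and its 95% interval ran from -0.47 to 0.75. Differences within those bounds are compatible with these values. Notch1 acts in T cell fate as well as in epithelium. It made up 71.8% and 75.3% of the summed receptor FPKM in the labelled-knockout libraries, against 71.7% and 35.8% in wild-type.

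Notch2, Notch3 and Notch4 were below 1 FPKM in at least 3 libraries and fell under the filter of the test. Notch2, a receptor also needed for marginal zone B cells, was at 0.912 and 0.654 FPKM in the labelled-knockout libraries, against 0.634 and 1.03 FPKM in wild-type, and the groups overlapped. Notch3, known for its role in vascular smooth muscle and pericytes, was at 0.130 and 0.0951 FPKM in the labelled-knockout libraries, against 0.371 and 0.654 FPKM in wild-type. It was the lowest or next to lowest member in every library, and both values were lower in the labelled-knockout libraries. Pericyte and smooth muscle markers summed to 8.55 and 12.3 FPKM in the labelled-knockout libraries, against 15.0 and 39.8 FPKM in wild-type. Without Mcam, a marker also found in endothelium, the other 6 summed to 5.66 and 8.31 FPKM in the labelled-knockout libraries, against 4.86 and 12.1 FPKM in wild-type, and the groups overlapped. Kcnj8, a pericyte potassium channel gene, was at 1.62 and 2.58 FPKM in the labelled-knockout libraries, against 0.305 and 1.03 FPKM in wild-type. It was the 1 tested marker of this list above wild-type in both labelled-knockout libraries. Mcam lay below, and Rgs5 and Pdgfrb overlapped. The part of pericytes and smooth muscle in the Notch3 values was not tested.

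Notch4, a receptor best known from endothelium and first found in mice at an integration site of mammary tumor virus, was at 0.111 and 0.127 FPKM in the labelled-knockout libraries, against 0.0413 and 2.36 FPKM in wild-type. A single library, the second wild-type one, held by far the most of it, with a level 57.1-fold that of the first wild-type library. It supplied 37.4% of the receptor FPKM there and between 1.12 and 3.58% in the other libraries. The endothelial ligand gene Dll4 had the same shape, at 0.309 and 0.418 FPKM in the labelled-knockout libraries, against 0.268 and 5.53 FPKM in wild-type. Cdh5, the cadherin of endothelial junctions, was at 0.276 and 0.143 FPKM in the labelled-knockout libraries, against 0.609 and 7.49 FPKM in wild-type. The part of endothelial cells in the Notch4 and Dll4 values was not tested.

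The promoters of Notch1 and Notch4 are shown because these receptors had the most unlike profiles, near level in all 4 libraries and high in a single library. The windows run from 250 bases before to 50 after the start site in RefSeq (GRCm38.p6, while the deposited table has no coordinates and its build is mm9). Capitals mark the GC box GGGCGG on either strand.
Notch1, chr2:26503773-26504072, minus strand: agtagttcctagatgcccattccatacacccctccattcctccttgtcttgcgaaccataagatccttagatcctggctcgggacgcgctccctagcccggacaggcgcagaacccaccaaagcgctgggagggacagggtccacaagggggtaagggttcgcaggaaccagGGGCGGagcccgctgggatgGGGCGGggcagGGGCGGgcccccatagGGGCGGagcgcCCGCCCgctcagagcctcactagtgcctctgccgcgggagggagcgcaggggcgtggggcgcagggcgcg
Notch4, chr17:34564045-34564344, plus strand: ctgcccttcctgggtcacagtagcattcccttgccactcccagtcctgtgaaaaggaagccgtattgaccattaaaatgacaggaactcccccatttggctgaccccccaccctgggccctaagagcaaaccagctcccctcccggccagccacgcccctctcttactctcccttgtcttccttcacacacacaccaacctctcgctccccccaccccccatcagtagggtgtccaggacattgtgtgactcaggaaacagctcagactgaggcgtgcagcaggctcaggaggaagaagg
The Notch1 window held 5 GC boxes and 23 CG dinucleotides at 68.3% G and C, and the Notch4 window held 0 GC boxes and 5 CG dinucleotides at 58.3%. The Notch2 window held 7 GC boxes and that of Notch3 held 4. Of all 32851 RefSeq promoter windows 35.7% held the GC box.

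**Figure D3:**
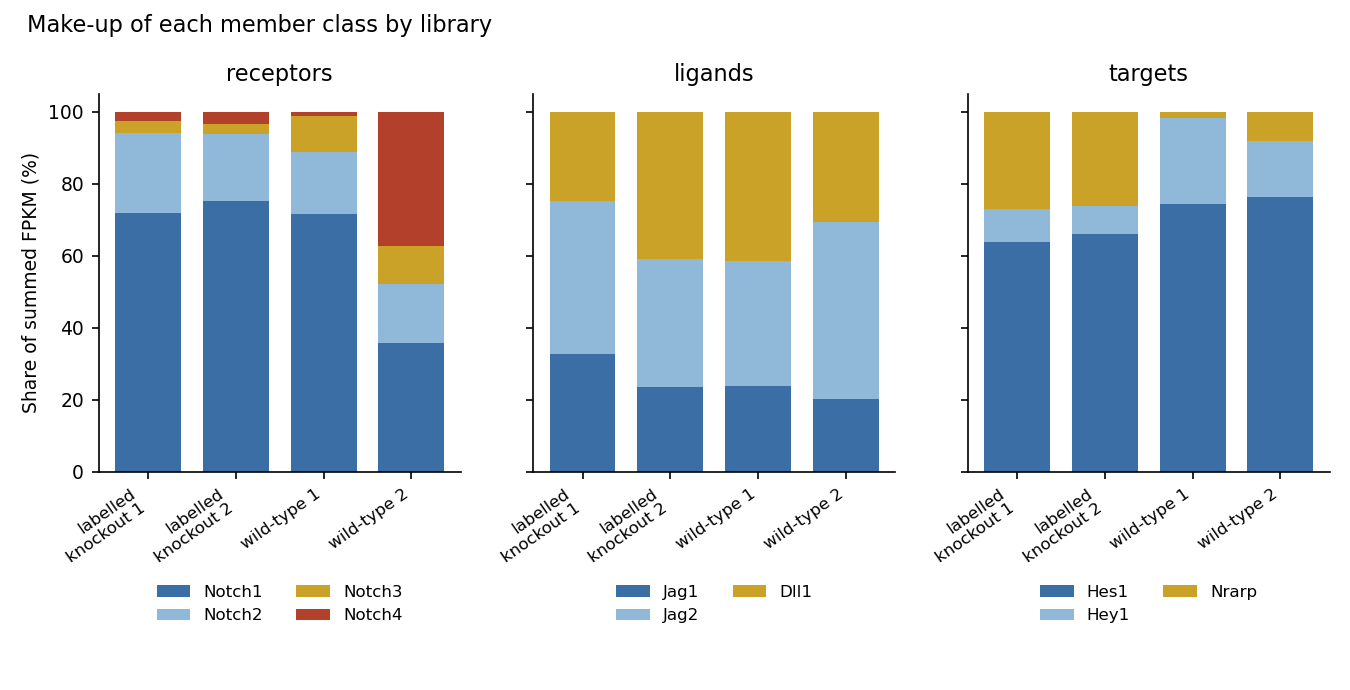
Share of each gene in the summed FPKM of its class (percent), in a bar for each library. Notch4 made up 37.4% of receptor FPKM in the second wild-type library, and Nrarp made up 26.96 and 26.2% of target FPKM in the labelled-knockout libraries, against 1.92 and 8.14% in wild-type.

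The ligand genes were lower in both labelled-knockout libraries than in either wild-type library, and none of the 3 passed the test. Dll1, a Delta-like ligand, was at 0.557 and 1.03 FPKM in the labelled-knockout libraries, against 1.77 and 2.15 FPKM in wild-type. The pair labelled knockout differed by a factor of 1.86, more than the wild-type pair. The difference was -0.73 (SE 0.23; limma, adjusted p = 0.10). Jag2 was at 0.955 and 0.896 FPKM in the labelled-knockout libraries, against 1.48 and 3.43 FPKM in wild-type, where the pair differed by a factor of 2.32. Its difference of -0.78 (SE 0.35; limma, adjusted p = 0.19) became -1.20 when the first wild-type library was left out and -0.37 when the second was. Jag1, the other Jagged ligand, was at 0.734 and 0.594 FPKM in the labelled-knockout libraries, against 1.01 and 1.41 FPKM in wild-type (difference -0.41, SE 0.18; limma, adjusted p = 0.19). Jag1 and Jag2 were below 1 FPKM in both labelled-knockout libraries, so they passed the filter through the wild-type libraries alone. All levels of the 3 ligand genes lay near the pseudocount of 1, so the log2(FPKM + 1) scale understates their ratios. Without the first wild-type library all 3 passed and without the second Dll1 did (adjusted p = 0.022), in fits that left a single wild-type library and passed 69.3% and 71% of all genes.

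**Figure D4:**
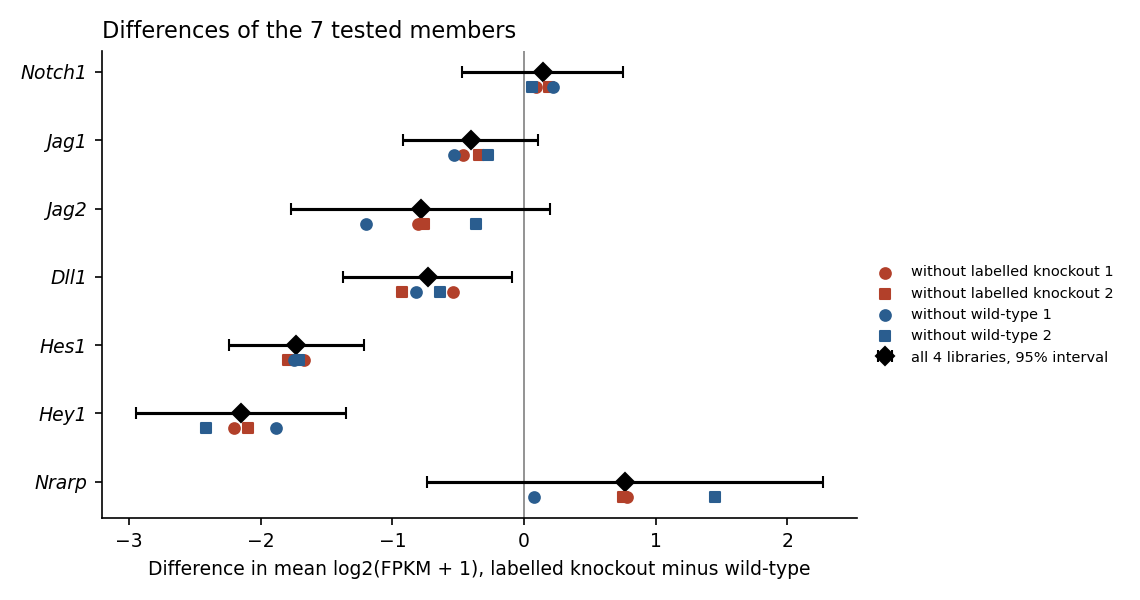
Difference in mean log2(FPKM + 1), labelled knockout minus wild-type, of the 7 members that passed the filter (diamonds, with 95% intervals), and the same without each library in turn. The intervals, which are not adjusted for the number of genes, lay below 0 for Dll1, Hes1 and Hey1. Dll1 did not pass the test (limma, adjusted p = 0.10). Leaving out a wild-type library moved Nrarp between 0.08 and 1.45.

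Hes1 was the highest of the 10 members in every library, and the order below it differed between the groups. In the labelled-knockout libraries Nrarp came next, then Notch1 and then Hey1. In wild-type Hey1 came next to Hes1, followed by Notch1 in the first library and by Nrarp in the second. Lower down in the labelled-knockout libraries, Dll1 at 0.557 and 1.03 FPKM spanned the values of Jag1, Jag2 and Notch2, so that its place among them is not fixed by these data.

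The Nrarp promoter is shown for the target gene that went apart from Hes1 and Hey1, with GC boxes in capitals (the 2 overlap by a base).
Nrarp, chr2:25180508-25180807, plus strand: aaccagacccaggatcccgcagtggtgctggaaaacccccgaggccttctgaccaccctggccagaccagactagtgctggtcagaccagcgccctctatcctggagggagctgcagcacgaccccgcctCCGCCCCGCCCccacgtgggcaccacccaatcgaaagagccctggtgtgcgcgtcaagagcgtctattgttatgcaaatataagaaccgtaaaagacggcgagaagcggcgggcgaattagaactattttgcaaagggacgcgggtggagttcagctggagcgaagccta
The core of the RBPJ binding site, TGGGAA, searched on both strands, occurred in 0 of the 9 windows found for 8 members, including this one. It occurred in 25.6% of all RefSeq windows. These windows are short, and the absence of the letters says nothing of binding elsewhere. No window is shown for Hes1 and Hey1.

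Among the other genes of the pathway, 51 of 68 listed passed the filter. Of these, 5 rose, 1 fell and 45 did not pass, which is 11.8% called against 16.5% of all tested genes, and 9.80% higher against 9.51% of all tested genes. Their median difference was 0.25, against 0.08 over all tested genes. The genes that rose were Dtx1, Hes5, Il2ra, Cr2 and Ep300. All 5 were below 1 FPKM in both wild-type libraries, so they passed the filter through the labelled-knockout libraries alone. Dtx1, an E3 ligase that is induced by Notch in lymphocytes, was at 10.9 and 11.3 FPKM in the labelled-knockout libraries, against 0.0860 and 0.247 FPKM in wild-type (difference 3.38, SE 0.22; limma, adjusted p = 0.024). Hes5, a sister gene of Hes1, was at 2.04 and 3.78 FPKM in the labelled-knockout libraries and listed at 0 in both wild-type libraries. Cr2, the complement receptor of B cells, was at 6.31 and 7.39 FPKM in the labelled-knockout libraries, against 0 and 0.0152 FPKM in wild-type. Il2ra, the alpha chain of the interleukin 2 receptor, was at 6.49 and 5.64 FPKM in the labelled-knockout libraries, against 0.223 and 0.469 FPKM in wild-type. Dtx1, Cr2 and Il2ra are known from lymphocytes, and the 13 lymphocyte markers rose in the same libraries; the part of lymphocytes in their rise was not tested.

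Ccnd1, the cyclin D1 gene, was the pathway gene that fell, with 1.26 and 1.55 FPKM in the labelled-knockout libraries, against 6.49 and 12.7 FPKM in wild-type (difference -2.08, SE 0.38; limma, adjusted p = 0.044). Of the 9 tested genes in the list of other targets, 3 rose, 1 fell and 5 did not pass. The share called was 44.4%, against 16.5% of all tested genes. Sox9, a transcription factor of mammary progenitors, was at 4.50 and 4.33 FPKM in the labelled-knockout libraries, against 73.1 and 13.8 FPKM in wild-type (adjusted p = 0.11). Myc and Gata3 had groups that overlapped. Myc was at 49.8 and 43.9 FPKM in the labelled-knockout libraries, against 65.7 and 26.96 FPKM in wild-type. The called genes of this list thus went in both directions. Hes5, Il2ra and Cr2, the 3 that rose, passed the filter through the labelled-knockout libraries alone. The count therefore says little of a direction shared by the targets.

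Of the 6 tested nuclear partners of Notch, Ep300 rose and 5 did not pass, a share called of 16.7% that was close to the 16.5% over all genes tested. The differences of the 6 were all positive, with a median of 0.54, while 53.6% of all genes tested had a positive difference. Ep300 and Maml2 passed the filter through the labelled-knockout libraries alone. Under the filter, Maml3 was lower there, at 0.205 and 0.332 FPKM against 0.419 and 0.513 FPKM in wild-type. Maml1, also under it, was higher, at 0.820 and 0.957 FPKM against 0.508 and 0.562 FPKM. Ep300, the p300 acetyltransferase, was at 2.67 and 2.22 FPKM in the labelled-knockout libraries, against 0.512 and 0.741 FPKM in wild-type (difference 1.08, SE 0.20; limma, adjusted p = 0.044). Crebbp, its paralog, was at 4.19 and 3.33 FPKM in the labelled-knockout libraries, against 1.66 and 1.12 FPKM in wild-type (limma, adjusted p = 0.071). Rbpj, the DNA-binding partner, was at 3.71 and 3.05 FPKM in the labelled-knockout libraries, against 1.70 and 1.88 FPKM in wild-type (difference 0.65, SE 0.22; limma, adjusted p = 0.12). Of the 10 corepressor genes none passed. Their median difference was 0.45, and 8 of the 10 differences were positive. Of the 10 genes, 7 lay above wild-type in both labelled-knockout libraries, as did 4376 of all 11138 genes tested. Hdac1, a histone deacetylase, was at 70.2 and 71.5 FPKM in the labelled-knockout libraries, against 41.0 and 38.1 FPKM in wild-type (limma, adjusted p = 0.051), and Ncor1 was at 30.4 and 23.6 FPKM there, against 9.96 and 13.5 FPKM in wild-type (limma, adjusted p = 0.061). Bend6 went the other way, at 0.541 and 0.669 FPKM in the labelled-knockout libraries, against 2.08 and 3.69 FPKM in wild-type (limma, adjusted p = 0.061). It passed the filter through the wild-type libraries alone.

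**Figure D5:**
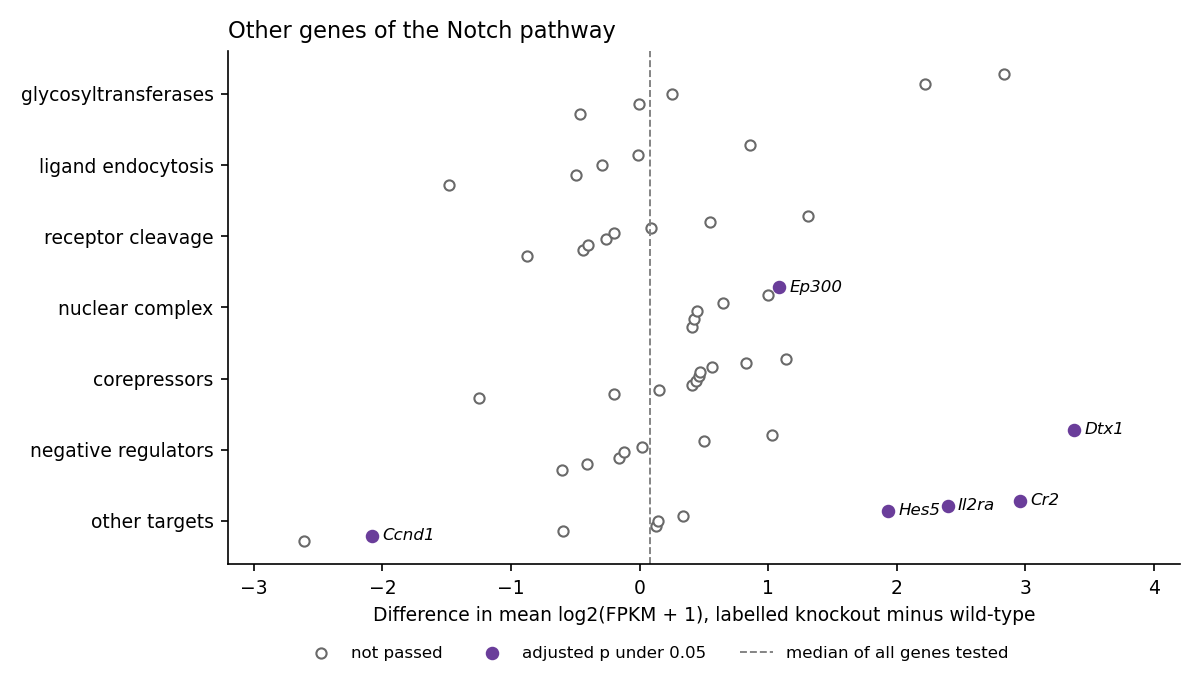
Difference in mean log2(FPKM + 1), labelled knockout minus wild-type, of the 51 tested pathway genes by role; filled points passed the test and are named, and the dashed line is the median of all genes tested, 0.08. All 6 tested genes of the nuclear complex lay right of 0, and the called genes other than Ccnd1 lay on the higher side.

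Of the 5 genes for enzymes that add sugars to Notch none passed, and Lfng and Mfng differed between the wild-type libraries by factors of 13.6 and 52.6. Lfng, the Lunatic fringe glycosyltransferase that shifts receptors toward Delta ligands, was at 24.3 and 21.0 FPKM in the labelled-knockout libraries, against 0.472 and 6.43 FPKM in wild-type (difference 2.83, SE 0.86; limma, adjusted p = 0.097). Mfng, Manic fringe, was at 16.8 and 28.2 FPKM in the labelled-knockout libraries, against 0.325 and 17.1 FPKM in wild-type, so that the second wild-type library fell inside the range of the pair labelled knockout. Rfng, Radical fringe, leaned the other way, at 5.996 and 7.4996 FPKM in the labelled-knockout libraries, against 10.7 and 8.70 FPKM in wild-type (limma, adjusted p = 0.24). The fringe genes therefore differed in their profiles over the libraries. All marker sums other than those of luminal and basal epithelium were also higher in the second wild-type library than in the first. The part of these cell types in the Lfng and Mfng values was not tested.

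None of the 8 tested genes of receptor cleavage passed. Psen2, a catalytic subunit of gamma-secretase, was at 11.7 and 14.7 FPKM in the labelled-knockout libraries, against 2.23 and 9.06 FPKM in wild-type. Aph1a, a scaffold subunit, was at 3.23 and 3.42 FPKM in the labelled-knockout libraries, against 7.86 and 6.09 FPKM in wild-type (limma, adjusted p = 0.078). The proteases Adam10 and Adam17 differed by -0.40 and -0.44 (limma, adjusted p = 0.35 and 0.31). Psen2 and Aph1a thus stood on opposite sides of 0.

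In the list for ligand endocytosis none of 5 tested genes passed. Dnm2, the dynamin that pinches off vesicles, was at 46.6 and 41.9 FPKM in the labelled-knockout libraries, against 25.2 and 22.8 FPKM in wild-type (limma, adjusted p = 0.056). Mib1, the ligase that primes ligands for uptake, overlapped between the groups. Of the 8 tested negative regulators Dtx1 rose and 7 did not pass, a share called of 12.5% against 16.5% of all tested genes. Itch, a ubiquitin ligase of Notch, differed by 1.03 (SE 0.28; limma, adjusted p = 0.081) and Dtx3 by -0.60 (SE 0.21; limma, adjusted p = 0.12), while Numb, the inhibitor inherited unequally in dividing cells, had groups that overlapped. Of the other ligand genes none passed the filter, and Dll3 was listed at 0 in all libraries.

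The genes whose profiles over the 4 libraries lay nearest to each member were picked from 6520 genes with a mean of at least 5 FPKM, by Euclidean distance between centred log2(FPKM + 1) values. For Hes1 they were Prnp, Lap3 and Tmem51, at distances of 0.078 to 0.11. For Hey1 they were Marcksl1, Mcfd2 and Emp1, at 0.090 to 0.12. Nrarp had Haus4 at 0.019, then Sh3bgrl3 and Ubr7. Notch1 had Tsn, Arl6ip5 and Atp5d. Jag1 had Ei24, Zfpl1 and Tpgs1, Jag2 had Ifitm2, Cebpzos and St6galnac4, and Dll1 had Ext1, Pole3 and Mfsd10. With 4 libraries such nearness is a description of these values. The 3 genes nearest to Hes1 and the 3 nearest to Hey1 passed the test as lower, and the others named here did not pass. They were picked by the same values that the test used, so these outcomes add nothing to those of the members.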

How the data were processed

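RNA from sorted YFP+ mammary tumor cells was made into libraries with a low-input SMARTer mRNA kit, per the labels' protocols. The build is mm9, per the submitters' processing notes; for the aligner, the counting tool and the annotation, nothing is given in the sources at hand. The authors deposited 1 FPKM value per gene and library; the header names no unit, and it was read from the values. Of 24043 rows, 92 spike-in rows at 0 were left out and 27 carry dates in place of symbols.

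Groups follow the sample titles. The test was limma's (version 3.58.1, R 4.3.3) on log2(FPKM + 1), labelled knockout minus wild-type, for the 11138 genes that reached 1 FPKM in 2 or more libraries. Its prior was trended and robust, no covariate was used, and p-values were adjusted by Benjamini-Hochberg over all these genes, with a threshold of 0.05. The fit was tested on simulated data. A permutation test of 2 against 2 libraries cannot go below 0.333 two-sided. The lists hold 152 symbols; Adgre1 was matched through its older name Emr1. Members and lists were chosen with earlier results of these data known. Named genes are the members, Kdm1a, and pathway genes that passed or had the lowest p in their list. Also named are the 3 genes nearest each tested member and abundant markers. Dll4, Dll3, Cdh5, Gata3, Adam10, Numb, Muc1, Cldn3, Cldn4, Cldn7, Kcnj8, Mcam, Maml1 and Maml3 were added after their values were seen. One gene that this rule names is not reported here. Depth ratios rest on 49.0 to 59.2% of genes below 0.1 FPKM standing in whole-number ratios up to 6, within 0.05%. Sequences are RefSeq's (GRCm38.p6), matched by symbol for 8 of 10 members.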

Additional observations from a re-analysis of the deposited data

How the results depend on the processing

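With 4 libraries the counts of called genes depended on which were used. With each library left out in turn, the count over the whole table ran from 0 to 7912 against 1837 with all, the members from 0 to 5 against 2, and the pathway genes from 0 to 35 against 6. With no filter on low values 2 genes of the table passed, with 0 members and 0 pathway genes (adjusted p = 0.055 for Hes1 and 0.061 for Hey1); more genes were tested there, 17257. In that fit Notch2, Notch3 and Notch4 had adjusted p-values of 0.93, 0.15 and 0.50. With the replicate block 501 genes and 0 members passed (adjusted p = 0.054 for Hes1 and 0.051 for Hey1), and 4 pathway genes did; the numbers share no stated source, and the replicate deviations of the 2 groups correlated at -0.06 across genes, so the samples share only a number. The cause of these changes was not tested. Over the 12 alternatives every tested member that had a value kept its direction. The calls of Hes1 and Hey1 held in 8 of 12, among them the other pseudocount, the filter at 5 FPKM, the 3 rescalings and the constant prior. Notch1, Jag1, Jag2, Dll1 and Nrarp had no value with the filter at 5 FPKM. The number of reads behind levels below 1 FPKM is unknown.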
